A study of Mus musculus with 9 samples.

Results

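Bone morphogenetic proteins (BMPs) are secreted ligands that signal through SMAD transcription factors, and 10 genes of this pathway were examined in the embryonic mouse lens. The genes were taken by symbol from the annotation of the counted Ensembl genes: the ligands *Bmp4* and *Bmp7*, the type I receptors *Bmpr1a* and *Acvr1*, the receptor-activated *Smad1*, the inhibitory *Smad6* and *Smad7*, and the target genes *Id1*, *Id2* and *Id3*. All 10 were among the 55416 genes counted, and all 10 passed the filter on low counts that left 14903 genes for testing. Whole lenses of 4 *Atf4* null and 5 wildtype embryos were profiled by RNAseq at E16.5. The null embryos were homozygous for the *Atf4tm1Tow* allele, in which a neomycin cassette stands in place of the *Atf4* coding sequence. ATF4, a transcription factor of the stress response, is therefore missing from every cell of the embryo and not from the lens alone. Both genotypes came from crosses of heterozygotes on a mixed C57Bl/6/129 background with no other treatment, and each library was made from the lens pair of 1 embryo.

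BMP4 and BMP7 bind complexes of type I and type II receptors. The activated type I receptor phosphorylates SMAD1, SMAD5 and SMAD9, which enter the nucleus with SMAD4 and switch on the ID genes. SMAD6 and SMAD7 are induced by the pathway and dampen it, and BMP signaling is known to be needed for lens induction, lens cell survival and the differentiation of lens fibers.

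Counts assigned to genes ranged from 7440807 to 8906996 per library. *Atf4* stood between 0.582 and 10.6 CPM (read counts relative to library size, scaled by TMM factors) in the null lenses and between 119 and 155 CPM in wildtype, a log2 fold change of -4.55 ± 0.47 (SE; edgeR quasi-likelihood adjusted p = 9.75e-05). The summed level of 12 lens epithelium markers was 3002 to 3694 CPM in null and 4159 to 5722 CPM in wildtype lenses, and 8 of the 12 fell. The 15 lens fiber markers summed to 25746 to 61360 CPM in null lenses, and 5 of the 14 tested fell. *Lim2* alone had 0 counts in all libraries, and whether the counting missed its reads was not tested. The sum was 34569 CPM in wildtype replicate 5 and lay between 58690 and 64612 CPM in the remaining wildtype lenses. Wildtype replicate 5 also carried 14422 CPM of 13 mesenchyme markers and 9685 CPM of 11 skeletal muscle markers. The mesenchyme sum was 269 to 627 CPM in null lenses against 93.1 to 178 CPM in the other wildtype lenses, and the muscle sum 41.9 to 125.9 CPM against 17.1 to 36.3 CPM. With all libraries 0 mesenchyme markers passed (edgeR quasi-likelihood), and without wildtype replicate 5 it was 8 of 13, all higher in null lenses, with a median log2 fold change of 2.58. Values without this library are therefore given for each member and each further pathway gene that passed.

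Expression of the 10 genes did not pass the test between genotypes. None had an adjusted p below 0.05 (edgeR quasi-likelihood; lowest 0.291, highest 0.919), against 5.9% of all tested genes, where 333 rose and 547 fell. Scaling by library size alone turned that balance, with 64.3% of the called genes higher in null lenses against 37.8% with TMM factors. None had an unadjusted p below 0.05, a level that 19.6% of all genes reached, and DESeq2 and the edgeR exact test also called 0 of the 10. No member separated the null from the wildtype libraries, whereas 10.2% of all genes did. The median of the absolute log2 fold change was 0.29 for the members and 0.29 for all genes. The 95% intervals of 9 of the 10 members lay within a log2 fold change of 1 either way, as did those of 52.4% of all genes. *Smad6* was the exception. In these whole-lens samples fewer cells of a type and less RNA per cell cannot be told apart.

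Leaving out wildtype replicate 5, again 0 of the 10 passed (lowest adjusted p = 0.144, edgeR quasi-likelihood), against 8.33% of all genes. *Bmp7*, *Smad1* and *Smad7* then had an unadjusted p below 0.05, a share of members that stands beside 21.6% of all genes at that level.

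**Figure D1:**
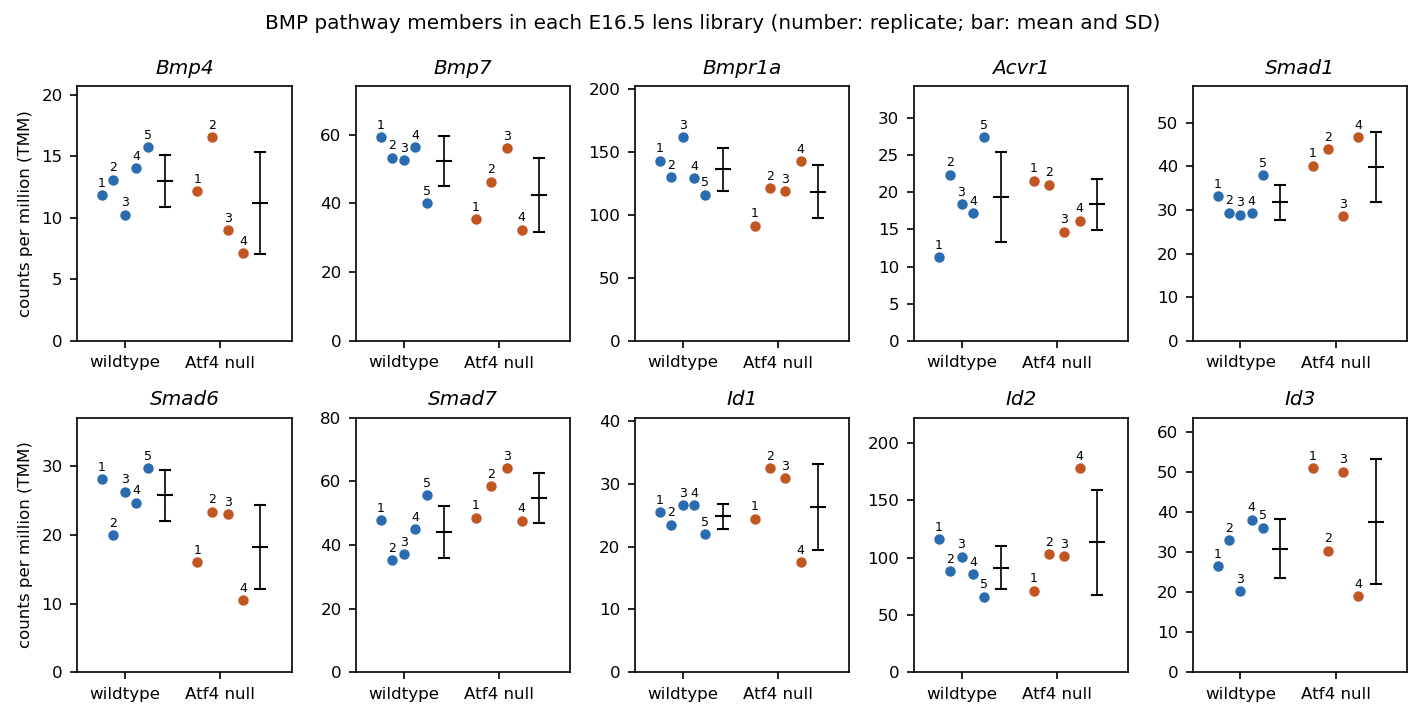
Level of each member (y axis, CPM scaled by TMM factors, from 0) in the 5 wildtype (blue) and 4 *Atf4* null (orange) lens libraries, each point numbered by replicate, with the mean and SD as a bar. The genotypes overlap for every one of the 10 genes, and *Id2* in null replicate 4 (178 CPM) stands above all the other libraries.

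Among the members, *Id2* had the highest level per length in wildtype lenses, at 26.2 ± 5.34 FPKM (SD, n = 5). *Bmpr1a* followed at 17.5 ± 2.23 FPKM, *Id3* at 17.2 ± 4.10 FPKM, *Id1* at 14.0 ± 1.15 FPKM and *Bmp7* at 11.8 ± 1.65 FPKM. The inhibitory *Smad7* stood at 9.31 ± 1.74 FPKM and *Smad6* at 7.26 ± 1.05 FPKM. The lowest 3 were *Smad1* at 3.46 ± 0.427 FPKM, *Acvr1* at 2.89 ± 0.898 FPKM and *Bmp4* at 2.48 ± 0.400 FPKM. Only the step from *Smad6* to *Smad1* separated neighbors in this order, since the wildtype ranges of every other neighboring pair overlapped.

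*Bmp7* (ENSMUSG00000008999, GRCm39 chr2:172709805-172782410, minus strand) encodes the BMP long known from mutants with small or missing eyes. Its level was 35.4, 46.3, 56.0 and 32.3 CPM in null replicates 1 to 4 and 59.3, 53.3, 52.5, 56.3 and 40.2 CPM in wildtype replicates 1 to 5. Null replicates 1 and 4 lay below all wildtype lenses, while null replicate 3 lay inside the wildtype range. The log2 fold change was -0.30 ± 0.18 (SE; 95% interval -0.70 to 0.10; edgeR quasi-likelihood adjusted p = 0.420), and -0.38 (adjusted p = 0.227) without wildtype replicate 5, the lowest wildtype library.

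*Bmp4* (ENSMUSG00000021835, GRCm39 chr14:46620250-46636745, minus strand) encodes the ligand that the optic vesicle supplies during lens induction. It was counted at 12.2, 16.6, 8.99 and 7.13 CPM in the null lenses and 11.8, 13.1, 10.3, 14.0 and 15.7 CPM in wildtype. The null lenses held both the highest and the lowest library. The difference was -0.21 ± 0.28 on the log2 scale (95% interval -0.81 to 0.39; edgeR quasi-likelihood adjusted p = 0.757), and -0.13 without wildtype replicate 5, the highest wildtype library.

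*Bmpr1a* (ENSMUSG00000021796, GRCm39 chr14:34132687-34225379, minus strand), the type I receptor with the highest level here, stood at 91.3, 121, 119 and 142 CPM in null and at 143, 130, 162, 129 and 116 CPM in wildtype lenses. Null replicate 1 was the lowest library and the other 3 null lenses fell inside the wildtype range. Its log2 fold change of -0.20 ± 0.14 had the narrowest interval of the members (-0.50 to 0.10; edgeR quasi-likelihood adjusted p = 0.492), and it was -0.25 without wildtype replicate 5.

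*Acvr1* (ENSMUSG00000026836, GRCm39 chr2:58278656-58457770, minus strand), also called ALK2, is the type I receptor used mainly by BMP7. It was measured at 21.5, 21.0, 14.7 and 16.2 CPM in null lenses and 11.3, 22.3, 18.4, 17.2 and 27.4 CPM in wildtype. All 4 null values fell between the lowest and the highest wildtype value. The difference of -0.08 ± 0.26 (95% interval -0.63 to 0.48; edgeR quasi-likelihood adjusted p = 0.919) became 0.09 without wildtype replicate 5.

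Together, the type I receptors *Bmpr1a*, *Bmpr1b*, *Acvr1* and *Acvrl1* were led by *Bmpr1a* in all 9 libraries. Its share of their summed FPKM was 59.3 to 76.9% in null and 59.7 to 75.1% in wildtype lenses, so the ranges overlapped almost wholly.

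*Smad1* (ENSMUSG00000031681, GRCm39 chr8:80065023-80126168, minus strand) encodes a SMAD that the type I receptors phosphorylate. Its level was 40.2, 43.9, 28.6 and 46.7 CPM in null and 33.1, 29.4, 28.9, 29.2 and 38.02 CPM in wildtype lenses. Null replicates 1, 2 and 4 lay above all wildtype lenses, and null replicate 3 lay below them all. Its log2 fold change was 0.33 ± 0.18 (95% interval -0.05 to 0.71; edgeR quasi-likelihood adjusted p = 0.340), and 0.41 (adjusted p = 0.212) without wildtype replicate 5. *Smad5*, which acts in parallel, was the more abundant of the pair per length, with 12.4 ± 1.62 FPKM in null and 13.3 ± 2.17 FPKM in wildtype lenses.

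*Smad6* (ENSMUSG00000036867, GRCm39 chr9:63860341-63929793, minus strand) encodes the inhibitory SMAD that acts mainly on the BMP branch. Its level was 16.05, 23.4, 23.0 and 10.5 CPM in null lenses and 28.1, 19.99, 26.3, 24.7 and 29.7 CPM in wildtype. Null replicates 1 and 4 were below every wildtype lens, and null replicates 2 and 3 exceeded only wildtype replicate 2. Its difference was the largest of the members at -0.50 ± 0.25 on the log2 scale (95% interval -1.02 to 0.03; edgeR quasi-likelihood adjusted p = 0.291; -0.44 and 0.349 without wildtype replicate 5). A log2 fold change as low as -1.02 therefore lies within the interval.

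*Smad7* (ENSMUSG00000025880, GRCm39 chr18:75500374-75529006, plus strand) encodes the inhibitory SMAD that acts on both the BMP and the TGF-beta branch. It stood at 48.6, 58.6, 64.0 and 47.6 CPM in null and at 47.8, 35.3, 37.2, 45.1 and 55.6 CPM in wildtype lenses. Null replicates 2 and 3 were above all wildtype lenses, and the other null lenses lay inside the wildtype range. This gave a log2 fold change of 0.31 ± 0.17 (95% interval -0.05 to 0.67; edgeR quasi-likelihood adjusted p = 0.344), and 0.41 (adjusted p = 0.144) without wildtype replicate 5.

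The balance between the inhibitory SMADs separated the libraries by genotype, although neither gene did so alone. The ratio of *Smad7* to *Smad6* FPKM was 2.26, 1.87, 2.08 and 3.39 in null replicates 1 to 4 and 1.27, 1.32, 1.06, 1.36 and 1.40 in wildtype replicates 1 to 5. Every null lens was above every wildtype lens, with a mean of 2.40 ± 0.681 (SD, n = 4) against 1.28 ± 0.135 (SD, n = 5), and wildtype replicate 5 stood with the other wildtype lenses. *Smad6* thus made up 22.8 to 34.8% of the summed FPKM in null and 41.7 to 48.6% in wildtype lenses. The scaling between libraries cancels in such a ratio. The ratio was chosen after the values had been seen, so it is a description and was not tested. It is 1 pattern picked from the shares of 21 genes in 5 role groups. The shares of *Smad6* and *Smad7*, which mirror each other, were the only 2 that did not overlap. Of all single genes 10.2% also separated the genotypes in CPM, and no such share was computed for ratios of genes. The summed level of 11 vascular endothelium markers, all with counts, was 379, 402, 506 and 258 CPM in null replicates 1 to 4 and 438, 467, 577, 599 and 770 CPM in the wildtype lenses, with 2 of the 11 called lower. Like *Smad6*, it was lowest in null replicate 4 and highest in wildtype replicate 5. Null replicate 3 had a higher sum than wildtype replicates 1 and 2, and its ratio of 2.08 was above theirs of 1.27 and 1.32. Wildtype replicate 5, with the highest sum, also had the highest wildtype ratio (1.40). The 8 blood cell markers summed to 183 to 256 CPM in null and 231 to 743 CPM in wildtype lenses, and the part of either list in the ratio was not tested.

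**Figure D2:**
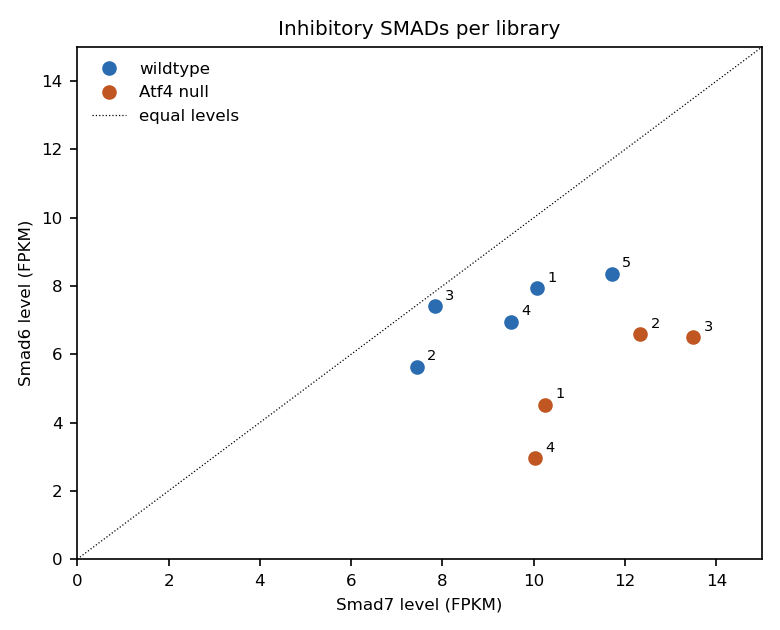
*Smad6* level (y axis, FPKM) against *Smad7* level (x axis, FPKM) in the 5 wildtype (blue) and 4 *Atf4* null (orange) libraries, numbered by replicate, with a dotted line at equal levels. Each null lens lies farther below the line than each wildtype lens in proportion, at ratios of 1.87 to 3.39 against 1.06 to 1.40.

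The ID genes encode helix-loop-helix proteins without a DNA-binding region, which hold E proteins such as TCF3 and TCF12 away from DNA. They are classical direct targets of BMP SMADs, so the 250 bases upstream of the Ensembl canonical transcript start of each ID gene in GRCm39 are shown. For *Id1* this start lies downstream of the gene start, since longer annotated transcripts begin further upstream and the window is intronic to them. The windows are chr2:152577915-152578164 (plus strand, *Id1*), chr12:25147283-25147532 (minus strand, *Id2*) and chr4:135870558-135870807 (plus strand, *Id3*), written 5′ to 3′ on the strand of the gene. Capitals mark GTCT, the short SMAD box, found on either strand.
Id1: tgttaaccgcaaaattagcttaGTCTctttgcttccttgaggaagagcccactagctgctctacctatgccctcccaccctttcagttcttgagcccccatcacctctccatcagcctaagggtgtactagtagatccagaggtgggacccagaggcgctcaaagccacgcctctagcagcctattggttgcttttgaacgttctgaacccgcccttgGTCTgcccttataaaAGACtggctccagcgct
Id2: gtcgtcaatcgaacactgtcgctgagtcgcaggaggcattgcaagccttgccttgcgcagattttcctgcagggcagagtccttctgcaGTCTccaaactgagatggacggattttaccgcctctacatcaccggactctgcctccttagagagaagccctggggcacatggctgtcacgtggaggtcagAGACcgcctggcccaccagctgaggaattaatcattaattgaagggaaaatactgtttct
Id3: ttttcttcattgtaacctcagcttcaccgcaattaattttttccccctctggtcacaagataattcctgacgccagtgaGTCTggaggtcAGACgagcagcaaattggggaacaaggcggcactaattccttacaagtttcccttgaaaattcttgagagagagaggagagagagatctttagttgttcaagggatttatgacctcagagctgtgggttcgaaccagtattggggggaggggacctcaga

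All 3 windows held GTCT, as did 83.4% of the 21757 protein-coding promoters searched over the same length. GGCGCC, a letter string known from BMP-responsive elements, was in none of the 3 ID windows but in those of *Bmpr1a* and *Acvr1*, and 9.32% of all promoters held it. TGATGNAA, the core of the element that ATF4 binds with C/EBP partners, was in 0 of the 10 members' windows and in 3.39% of all promoters. TGACGTCA, the full cAMP-response element, was in 0 of the 10 and in 1.70% of all. All 4 strings were searched on both strands, and a missing match says only that these letters are not in the window.

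*Id2* (ENSMUSG00000020644, GRCm39 chr12:25143798-25147282, minus strand) was counted at 71.3, 103, 101 and 178 CPM in null and at 116, 88.5, 101, 85.4 and 66.0 CPM in wildtype lenses. Null replicate 4 was above all other libraries, and the other 3 null lenses lay inside the wildtype range. The log2 fold change was 0.31 ± 0.23 (95% interval -0.18 to 0.80; edgeR quasi-likelihood adjusted p = 0.515), and it rested largely on null replicate 4, being 0.00 without it. Without wildtype replicate 5 it was 0.22.

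*Id3* (ENSMUSG00000007872, GRCm39 chr4:135870808-135873066, plus strand) stood at 50.8, 30.4, 50.003 and 18.9 CPM in null and 26.4, 33.0, 20.3, 38.1 and 36.1 CPM in wildtype lenses. Null replicates 1 and 3 were above all wildtype lenses and null replicate 4 was below them. The difference of 0.29 ± 0.28 on the log2 scale had an interval from -0.31 to 0.89 (edgeR quasi-likelihood adjusted p = 0.648), and it was 0.35 without wildtype replicate 5.

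*Id1* (ENSMUSG00000042745, GRCm39 chr2:152566218-152579544, plus strand) was the steadiest member in wildtype lenses, at 25.4, 23.4, 26.6, 26.6 and 22.0 CPM, a coefficient of variation of 8.21%. Null lenses spread more widely, at 24.4, 32.4, 30.8 and 17.5 CPM, a coefficient of variation of 25.9%, and lay on both sides of the wildtype range. Its log2 fold change was 0.09 ± 0.20 (95% interval -0.35 to 0.52; edgeR quasi-likelihood adjusted p = 0.880), and 0.05 without wildtype replicate 5.

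Null replicates 1 and 4 stood at opposite ends of the null lenses for *Id2*, *Bmpr1a* and *Id3*. For *Bmp7*, *Smad6*, *Smad7* and *Id1* they were instead the lowest null lenses. Null replicate 4 had the highest *Id2*, *Bmpr1a* and *Smad1* of the null lenses and the lowest *Bmp4*, *Bmp7*, *Smad6*, *Smad7*, *Id1* and *Id3*. It also had the highest fiber marker sum of the null lenses (61360 CPM) and the lowest neural retina marker sum (329 CPM over 11 genes), while null replicate 1 had the lowest fiber sum (25746 CPM) and the highest retina sum (888 CPM). In wildtype lenses the retina markers summed to 197 to 319 CPM, below every null lens. The proliferation gene *Mki67* was at 769 CPM in null replicate 1 and 224 CPM in null replicate 4, against 422 to 535 CPM in wildtype. Wildtype replicate 5, with the lowest fiber sum of its genotype, had the lowest wildtype *Id2* and *Bmpr1a*, and also the lowest wildtype *Bmp7* and *Id1*, which were lowest among null lenses in null replicate 4 with its high fiber sum. Within the ID genes, the share of *Id2* ranged from 28.1 to 69.1% of the summed FPKM in null and from 34.5 to 48.4% in wildtype lenses. The part of fiber and retina RNA in these values was not tested.

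**Figure D3:**
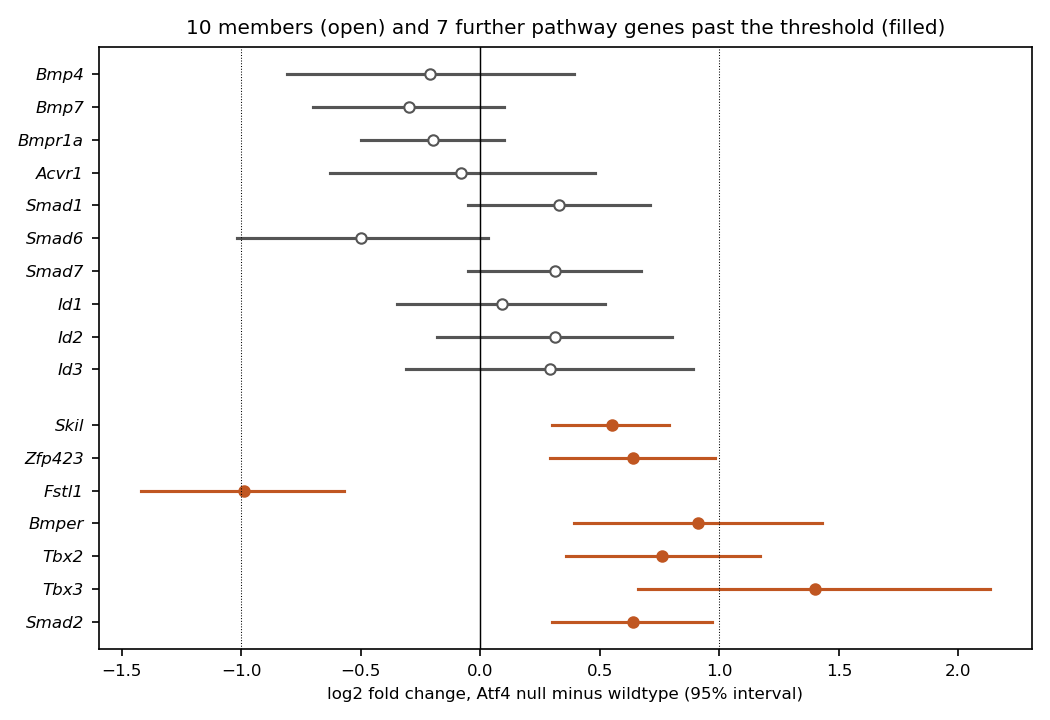
Log2 fold change (x axis, *Atf4* null minus wildtype) with 95% intervals for the 10 members (open circles) and the 7 further pathway genes with an adjusted p below 0.05 (filled circles), with dotted lines at a log2 fold change of 1 either way. All 10 member intervals cross 0, and that of *Smad6* reaches -1.02.

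The wider pathway was followed in 6 lists of 85 further genes, of which 81 had counts and 67 were tested. In these lists 6 genes rose and 1 fell, 7 of 67 against 5.9% of all genes. The count of 7 depended on single libraries, since it was 2 without wildtype replicate 1 or 2, 3 without wildtype replicate 3 or null replicate 2 or 3, and 4 without wildtype replicate 4 or null replicate 1. Their median log2 fold change was -0.05, beside 0.001 over all genes. Among 7 tested ligands and 10 tested receptors and coreceptors 0 passed (edgeR quasi-likelihood; 0 and 3 at an unadjusted p below 0.05). Of the 16 SMADs and cofactors 2 rose, of the 11 antagonists 1 rose and 1 fell, of the 12 BMP-responsive genes and ID partners 2 rose, and of the 11 genes of the TGF-beta and activin branch 1 rose. At an unadjusted p below 0.05 stood 5, 3, 6 and 3 genes of these 4 lists, and 20 of the 67 in all, beside 19.6% of all genes.

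*Fstl1*, a secreted follistatin-like glycoprotein that binds BMP4, fell. Its level was 293, 342, 356 and 274 CPM in null lenses and 533, 514, 536, 555 and 1012 CPM in wildtype. Every null lens was below every wildtype lens, and wildtype replicate 5, with the mesenchyme markers, was far above the others. The lens epithelium sum was also lower in every null lens (3002 to 3694 CPM against 4159 to 5722 CPM), but wildtype replicate 5 was its lowest wildtype lens. Without that library 8 of the 13 mesenchyme markers were higher in null lenses, and the part of either list was not tested. The log2 fold change of *Fstl1* was -0.99 ± 0.20 (95% interval -1.42 to -0.57; edgeR quasi-likelihood adjusted p = 0.00937), and -0.75 (adjusted p = 0.000457) without wildtype replicate 5. *Bmper*, a secreted BMP-binding modulator related to crossveinless, was higher, at 106, 146, 167 and 255 CPM in null against 108, 105, 98.8, 83.9 and 53.1 CPM in wildtype lenses. Null replicate 1 fell inside the wildtype range (log2 fold change 0.91 ± 0.24, edgeR quasi-likelihood adjusted p = 0.0408), and the call was lost in 9 of 17 alternatives (adjusted p up to 0.112), the replicate block among them. Without wildtype replicate 5 the difference was 0.78, and without null replicate 4 it was 0.64 (edgeR quasi-likelihood adjusted p = 0.112). Among null lenses the fiber marker sum was also lowest in replicate 1 (25746 CPM) and highest in replicate 4 (61360 CPM). In wildtype *Bmper* and the fiber sum were both lowest in replicate 5. The fiber sum was not higher in null lenses, and its part was not tested.

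*Skil*, which encodes the SMAD corepressor SnoN, stood at 249, 219, 229 and 233 CPM in null and 149, 155, 155, 196 and 142 CPM in wildtype lenses. The genotypes did not overlap, the log2 fold change was 0.55 ± 0.12 (edgeR quasi-likelihood adjusted p = 0.0132; 0.51 without wildtype replicate 5), and the call was kept in 17 of 17 alternatives, as was that of *Fstl1*. *Zfp423*, a zinc-finger partner of BMP SMADs, rose by a log2 fold change of 0.64 ± 0.16 (edgeR quasi-likelihood adjusted p = 0.0325; 0.74 without wildtype replicate 5), a call kept in 10 of 17 alternatives (adjusted p up to 0.102). Its null values of 139, 118, 127 and 98.6 CPM lay above the wildtype values of 55.7, 83.7, 67.2, 83.3 and 97.6 CPM, the closest pair being null replicate 4 and wildtype replicate 5. The retina marker sum of 888, 541, 604 and 329 CPM ordered the null lenses as *Zfp423* did, and its part was not tested.

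The T-box repressor genes *Tbx2* and *Tbx3*, which BMP signaling induces in the eye and limb, both rose. Of the 12 tested genes of their list 7 were higher and 5 lower in null lenses, with a median log2 fold change of 0.03. The 5 lower were *Msx2* (-0.62), *Msx1* (-0.55), *Gata3* (-0.51), *Hey1* (-0.39) and *Tcf4* (-0.29), none of which passed (edgeR quasi-likelihood). *Tbx2* was at 106, 78.3, 75.3 and 69.3 CPM in null and 35.4, 41.3, 51.0, 67.8 and 46.8 CPM in wildtype lenses (log2 fold change 0.76 ± 0.19, edgeR quasi-likelihood adjusted p = 0.0294; 0.75 without wildtype replicate 5). *Tbx3* was at 31.0, 34.2, 32.2 and 16.3 CPM in null and 11.7, 12.1, 3.58, 12.5 and 14.1 CPM in wildtype lenses (log2 fold change 1.40 ± 0.34, edgeR quasi-likelihood adjusted p = 0.0275; 1.52 without wildtype replicate 5). The call was kept in 10 of 17 alternatives for *Tbx2* (adjusted p up to 0.0833; lost with the replicate block) and in 11 of 17 for *Tbx3* (adjusted p up to 0.0950). Neither gene overlapped between genotypes, and the retina marker sum was also higher in every null lens, a part that was not tested. *Smad2*, a SMAD of the TGF-beta branch, rose without overlap from 45.8, 48.3, 47.6, 54.6 and 52.4 CPM in wildtype to 92.1, 60.7, 64.1 and 92.02 CPM in null lenses (log2 fold change 0.64 ± 0.15, edgeR quasi-likelihood adjusted p = 0.0267; 0.66 without wildtype replicate 5), and the call was kept in 12 of 17 alternatives (adjusted p up to 0.0782).

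Without wildtype replicate 5 the number of further pathway genes called was 10 of 65, beside 8.33% of all genes in the same fit. *Bmpr1b*, a type I receptor, then passed at a log2 fold change of -1.05 (edgeR quasi-likelihood adjusted p = 0.0185; with all libraries -0.88 and 0.118). *Ski*, the corepressor related to *Skil*, passed at 0.53 (adjusted p = 0.0297; 0.46 and 0.0873). *Atoh8*, a helix-loop-helix gene responsive to BMP, passed at 1.96 (adjusted p = 0.0035; 1.27 and 0.162). In wildtype replicate 5 *Bmpr1b* stood at 7.71 CPM against 15.7 to 20.4 CPM in the other wildtype lenses, and *Atoh8* at 14.7 against 2.05 to 5.92 CPM. In the same fit 8 of the 13 mesenchyme markers were higher in null lenses, and their part in these calls was not tested.

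**Figure D4:**
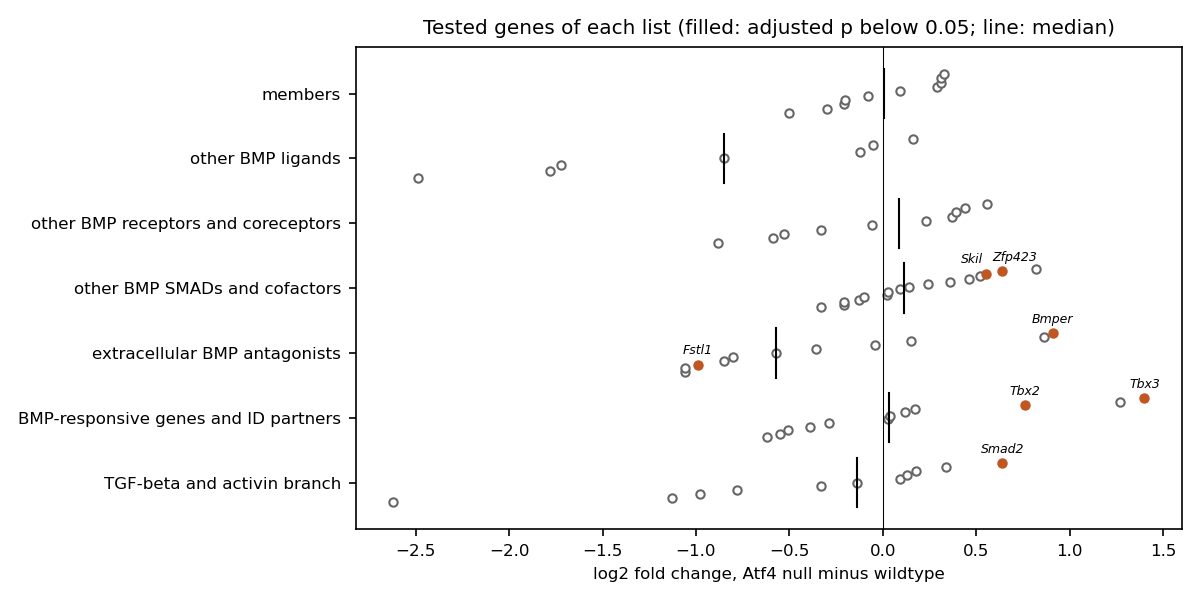
Log2 fold change (x axis, *Atf4* null minus wildtype) of each tested gene in the member list and in the 6 further lists, with filled points for an adjusted p below 0.05 and a line at each median. The members hold between -0.50 and 0.33, with their median at 0.00, and the 7 filled points are *Skil*, *Zfp423*, *Fstl1*, *Bmper*, *Tbx2*, *Tbx3* and *Smad2*.

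By level per length in wildtype lenses, *Gdf11* led the further BMP and GDF ligands with 12.3 ± 1.56 FPKM. It was followed by *Gdf10* (3.35 FPKM), *Bmp2* (2.28 FPKM), *Bmp3* (1.38 FPKM) and *Bmp6* (0.742 FPKM). The list was drawn by family, and which SMADs each ligand activates was not examined. The means of *Gdf10*, *Bmp3* and *Bmp6* rested on wildtype replicate 5. Without it they were 0.363, 0.0991 and 0.272 FPKM, and *Bmp2*, at 2.17 FPKM, came next after *Gdf11*. *Bmp3*, for example, was at 48.1 CPM there and at most 1.93 CPM in the other wildtype lenses, and the median log2 fold change of the ligand list moved from -0.85 to 0.14 without that library. Among the further receptors, all below the *Bmpr1a* level, the highest were *Bmpr2*, the type II BMP receptor, at 12.8 ± 0.656 FPKM and the endothelial coreceptor gene *Eng* at 10.6 ± 2.62 FPKM. *Acvr2b* (5.04 FPKM), *Tgfbr3* (4.11 FPKM) and *Acvrl1* (3.44 FPKM) were lower.

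The highest level among SMAD cofactors was that of *Tob1*, an antiproliferative gene whose product binds BMP SMADs, at 82.9 ± 20.1 FPKM. *Ski* (39.5 FPKM), the phosphatase gene *Ctdsp2* (19.7 FPKM), *Skil* (15.8 FPKM) and *Smad5* (13.3 FPKM) came next. *Fstl1* led the antagonists at 62.5 ± 21.2 FPKM, ahead of *Bmper* (18.3 FPKM), *Twsg1* (9.11 FPKM), *Nbl1* (2.48 FPKM) and *Grem1* (2.48 FPKM). The ID partner *Tcf3* was at 19.3 ± 1.80 FPKM, with *Msx1* (12.035 FPKM), *Tbx2* (9.44 FPKM), *Hey1* (8.50 FPKM) and *Tcf12* (7.24 FPKM) below it. In the TGF-beta branch *Tgfb2* was at 33.4 ± 2.52 FPKM, above *Tgfbr1* (11.5 FPKM), *Smad3* (10.5 FPKM), *Acvr1b* (5.97 FPKM) and *Smad2* (4.42 FPKM).

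**Figure D5:**
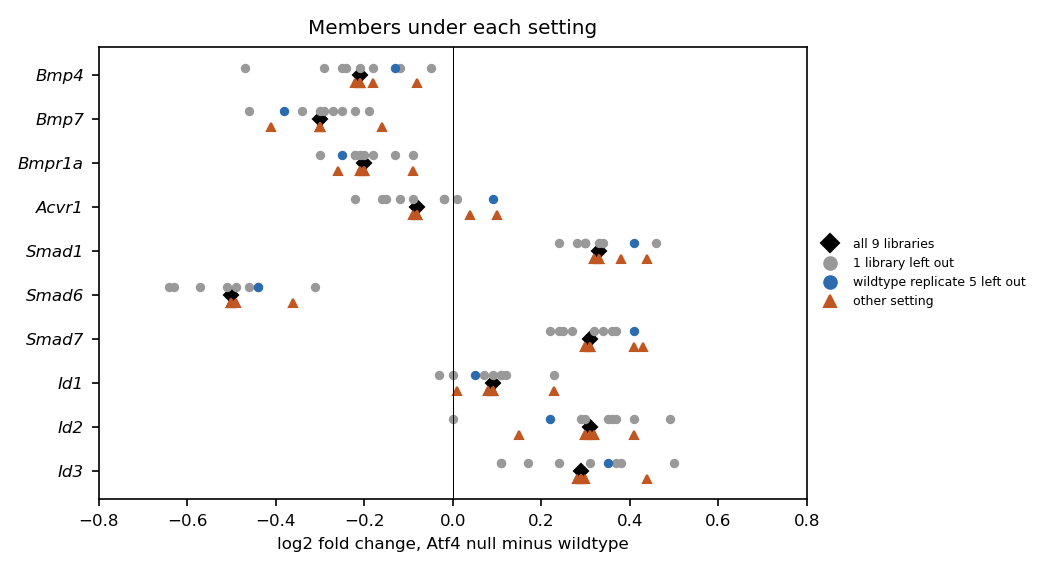
Log2 fold change (x axis, *Atf4* null minus wildtype) of each member with all 9 libraries (black), with 1 library left out (gray, or blue for wildtype replicate 5) and under the other settings (orange). Each member stayed between -0.64 and 0.50 throughout, and *Acvr1* and *Id1* crossed 0.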

How the data were processed

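Total RNA of E16.5 lens pairs was sequenced by the authors as stranded libraries. Per the labels and methods, reads were trimmed with Trim Galore, cleared of ribosomal RNA reads with HISAT2, aligned to GRCm39 and assigned to Ensembl genes with HTSeq, and the deposited values are raw read counts per gene for each of 9 libraries. The strand setting of the counting is not given in the sources used here, so reads of overlapping genes on opposite strands may not be told apart. RNA extraction is described with different kits in the labels and in the methods. Summary entries that name no gene (44.6 to 47.7% of each table) were left out. Wildtype replicate numbers follow the sample titles, which name other wildtype libraries than the file names do; the genotype is the same in both.

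The 4 *Atf4* null and 5 wildtype libraries were compared with edgeR 4.0.16 in R 4.3.3 (filtering by expression, TMM factors, quasi-likelihood test), with Benjamini-Hochberg adjustment over 14903 genes and a threshold of 0.05. Standard errors were taken from the fold change and its F statistic, and 95% intervals from the t distribution. CPM were scaled by TMM factors, and FPKM used the union exon length in GENCODE vM39. The fit was also run on simulated data with 200 changed genes, each changed by more than any member. The simulation held no library with extra tissue, and its outcome is not used here. P-values set the genotype difference against the spread between embryos. The litter of each embryo is not given in the sources used here and was not modeled.

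Alternatives were library size alone, RLE factors, DESeq2 1.42.0, the edgeR exact test used in the study, no filter, a robust fit, a minimum of 10 counts in each library, a replicate block and leaving out each library. Genes named were the 10 members, every further pathway gene past the threshold and the 5 with the highest wildtype FPKM in each list. The members and lists were chosen with earlier results of these data known, and *Bmpr1b*, *Ski* and *Atoh8* and the *Smad7* to *Smad6* ratio after their values were seen. Promoters are the 250 bases before the Ensembl canonical transcript start (GENCODE vM39) in GRCm39. The protein sequences of the members are not shown.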

Additional observations from a re-analysis of the deposited data

Results flagged for a closer look

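In 34 checks of a gene within 1 genotype, 3 found a library far from the others, where chance gives about 1 in 20, and none of the 3 concerned a member. *Fstl1* stood at 1012 CPM in wildtype replicate 5 against 514 to 555 CPM in the other wildtype lenses. *Skil* stood at 196 CPM in wildtype replicate 4 against 142 to 155 CPM, and *Tbx3* at 3.58 CPM in wildtype replicate 3 against 11.7 to 14.1 CPM. The *Fstl1* and *Tbx3* libraries lay on the side away from the null lenses, and without them the log2 fold change was -0.75 for *Fstl1* and 1.17 for *Tbx3*.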

How the results depend on the processing

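No member passed an adjusted p of 0.05 in any of 17 alternatives. The log2 fold change of *Acvr1* turned to 0.04 with library size alone, to 0.10 with the replicate block and ranged from -0.22 to 0.09 when 1 library was left out, while that of *Id1* ranged from -0.03 to 0.23. In 164 further recalculations members kept their direction. Over all genes the count of 880 became 1397 with DESeq2 and 527 to 1207 with 1 library left out, lowest without null replicate 2 and highest without wildtype replicate 5. It was also over 1.5 times lower than with all libraries without null replicate 3 (562), wildtype replicate 2 (570) or wildtype replicate 3 (562). The 7 further pathway genes became 2 to 10 when 1 library was left out: 2 without wildtype replicate 1 or 2, 3 without wildtype replicate 3 or null replicate 2 or 3, and 4 without wildtype replicate 4 or null replicate 1. *Skil* and *Fstl1* passed in every one of the 17. *Zfp423* passed in 10, *Tbx2* in 10, *Tbx3* in 11, *Smad2* in 12 and *Bmper* in 8, and the cause was not tested. Library size alone moved the median log2 fold change of all genes to 0.125 and that of the members to 0.13, and raised the share of called genes that were higher in null from 37.8 to 64.3%. With the replicate block over the 8 libraries numbered alike, 873 genes, 0 members and 7 further pathway genes passed, not all of them the same genes, since *Bmper* and *Tbx2* were lost. The deviations of same-numbered libraries correlated by -0.131, -0.019, -0.023 and 0.008, beside -0.194 to 0.222 for libraries numbered differently. With so few pairs these values do not decide whether the numbers pair the samples. Members had 49 to 1309 counts per library, and differences smaller than their 95% intervals could not be seen with groups of 4 and 5.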
